A study of Mus musculus with 2 samples.

Results

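The genes that drive and brake the cell cycle were examined in sorted cells of the mouse left–right organizer (LRO), the ciliated pit of the early embryo where the left–right axis is first set. The set held 44 genes, taken by symbol from a list of replication, cyclin, kinase, mitotic, inhibitor and pocket protein genes. The deposited table held 17586 gene symbols, and all 44 were among them. RNA came from FOXJ1-EGFP embryos of strain C57BL/6 x 129 SvEv at 0 to 4 somites (stage E.8 in the labels), in which the promoter of the ciliary regulator FOXJ1 drives green fluorescent protein (GFP). After microdissection, GFP-positive cells (LRO) and surrounding GFP-negative cells (non-LRO) were sorted by fluorescence. Each group was a pool of embryos, the pools were separate, and the LRO pool held far fewer cells and far less RNA. Each pool gave 1 library, so no difference below has a replicate check, and every comparison is between these 2 libraries.

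The cell cycle runs on cyclin-dependent kinases (CDKs), which are active only when bound to a cyclin. D cyclins with Cdk4 or Cdk6 phosphorylate the pocket proteins Rb1, Rbl1 and Rbl2, which releases E2F factors to switch on replication genes, and later B cyclins with Cdk1 take the cell into mitosis. The Cip/Kip and INK4 inhibitors block these kinases and hold cells in G1 or in a resting state. The cycle matters for a ciliated tissue because the centriole at the base of a cilium is also needed for the spindle, so cilia are generally built in G1 or resting cells and taken down before division.

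The promoters of the replication and mitotic genes carry different letters, and 4 promoters are shown. Mcm6, Cdk1 and Cdc20 stand for these 2 gene groups, which are compared throughout. Cdk4 belongs to the G1 genes and is the only member to pass the size rule used below. RefSeq promoters (GRCm38.p6, 250 bases before to 50 after the start site) were matched by symbol for 35 of the 44 genes. Both strands were searched for an E2F motif spelled TTCGCGC, with the variants TTGGCGC and also TTCCCGC and further TTGCCGC, for the cell cycle homology region known from mitotic promoters (CHR, spelled TTTGAA or otherwise TTCGAA) and for the CCAAT box. Matches may overlap, as E2F letters do on opposite strands of Mcm6. The last 120 bases before the start site are printed 5′ to 3′, with matched letters in capitals.
Mcm6, a replication gene (chr1:128359706-128359825, minus strand): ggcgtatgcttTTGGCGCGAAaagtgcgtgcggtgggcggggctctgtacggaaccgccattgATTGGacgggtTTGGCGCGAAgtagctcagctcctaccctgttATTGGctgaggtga
Cdk1, the mitotic kinase (chr10:69352913-69353032, minus strand): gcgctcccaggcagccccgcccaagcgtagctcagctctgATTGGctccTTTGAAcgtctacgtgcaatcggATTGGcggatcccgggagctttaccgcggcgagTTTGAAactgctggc
Cdc20, an activator of the anaphase-promoting complex (chr4:118437344-118437463, minus strand): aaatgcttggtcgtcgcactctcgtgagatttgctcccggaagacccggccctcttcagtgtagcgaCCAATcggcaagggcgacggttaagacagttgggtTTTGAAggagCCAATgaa
Cdk4, the D-cyclin kinase (chr10:127063415-127063534, plus strand): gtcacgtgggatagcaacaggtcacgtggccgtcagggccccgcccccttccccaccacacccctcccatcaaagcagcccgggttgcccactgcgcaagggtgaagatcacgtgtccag
E2F letters were found in 8 of 11 replication genes and 3 of 11 mitotic genes, against 10.9% of all 27025 genes with a promoter in the table. CHR letters were found in 2 of 11 replication genes and 9 of 11 mitotic genes, against 21.7% of all genes. The CCAAT box was found in 8 of 11 and 10 of 11, against 41.1%. Mcm6 had 5 E2F matches, the most of any member, while Mcm2, Pcna and Tyms had none. Cdk1 also had E2F letters further upstream, and Cdk4 had none of the motifs in its 300-base window. A match describes letters and does not show that a factor was bound.

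The LRO library held 16672852 reads assigned to transcripts and the non-LRO library 13418798. Reads were scaled to library totals of 30277869 and 24407300, and each ratio is LRO to non-LRO with its exact 95% binomial interval, which covers counting error only. All 7 node genes checked (Foxj1, Noto, Shh, Foxa2, T, Nodal and Dand5) were higher in the LRO pool. Foxj1 is tied to the sort itself, which used a FOXJ1 reporter. The study also found Shh, T and Foxa2 in its axial mesoderm cluster, so these do not mark the LRO alone. It treats Nodal and Dand5 as specific to the LRO. The pools also differed in other cell types. Summed CPM (counts scaled to the library total) were 0.198 in the LRO pool and 1512 in the non-LRO pool for 5 erythroid markers, of which Gata1 and Klf1 were at 0 LRO reads. They were 28.9 and 105 for 3 endothelial markers, 5.28 and 134 for 4 yolk sac markers, 211 and 36.3 for 3 cardiac markers, and 29.7 and 0.451 for 2 neural crest markers. In the endothelial, yolk sac and cardiac sums a leading gene held most LRO reads. Kdr had 871 LRO and 1899 non-LRO reads, while Pecam1 had 0 and 185 and Cdh5 had 5 and 478. Ttr had 154 and 587, while Afp had 0 and 371, Cubn 5 and 1682, and Apoa1 1 and 628. Ttn had 5666 and 688, beside 530 and 191 for Myl7 and 183 and 6 for Nkx2-5. The part of these cell types in the differences below was not tested. In pooled cells, fewer cycling cells and less RNA per cycling cell cannot be told apart.

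The cell cycle genes were well read in both pools, 42 of them with 50 or more reads on each side, and only the kinase gene Cdk4 passed a 2-fold size rule. Under that rule the whole interval of a higher gene lies above 2, and that of a lower gene below 0.5. Of the 44 genes, 0 were higher, against 3.97% of all 17586 genes and 2.22% of the 9894 well-read ones, those with 50 or more reads on each side. Cdk4 was the 1 lower gene, a share of 2.27%, against 12.3% of all genes and 6.99% of well-read genes. The latter are the closer comparison, since 42 of the 44 were among them. The members together made up 0.328% of the LRO library total against 0.426% for non-LRO.

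Smaller differences mostly pointed down, as they did for most well-read genes. The interval lay wholly below 1 for 35 members (79.5%), against 47.3% of all genes and 57.4% of well-read genes. It lay wholly above 1 for 4 members (9.09%), against 17.6% and 21.2%. Deeply read genes have narrower intervals, which clear 1 or another bound more easily. In the LRO pool members had a median RPKM (reads scaled to transcript length and library total) of 22.9, against 5.01 for well-read genes. The shares here and below were not matched for read depth, so part of the excess below 1 may reflect depth. Well-read genes had a median ratio of 0.809, a log2 ratio of -0.31, so the whole table was shifted down under this scaling. With TMM factors 18 members lay below 1 and 12 above, and with scaling to the median ratio 20 lay below and 9 above. Against that median, 20 members lay below (45.5%, against 33.1% of all genes and 36.2% of well-read genes), 9 lay above (20.5%, against 27.9% and 37.4%) and 15 had an interval that held it. The median log2 ratio of the 44 was -0.39, which is -0.09 relative to the shift. Values called relative below are log2 differences from the median of well-read genes.

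**Figure D1:**
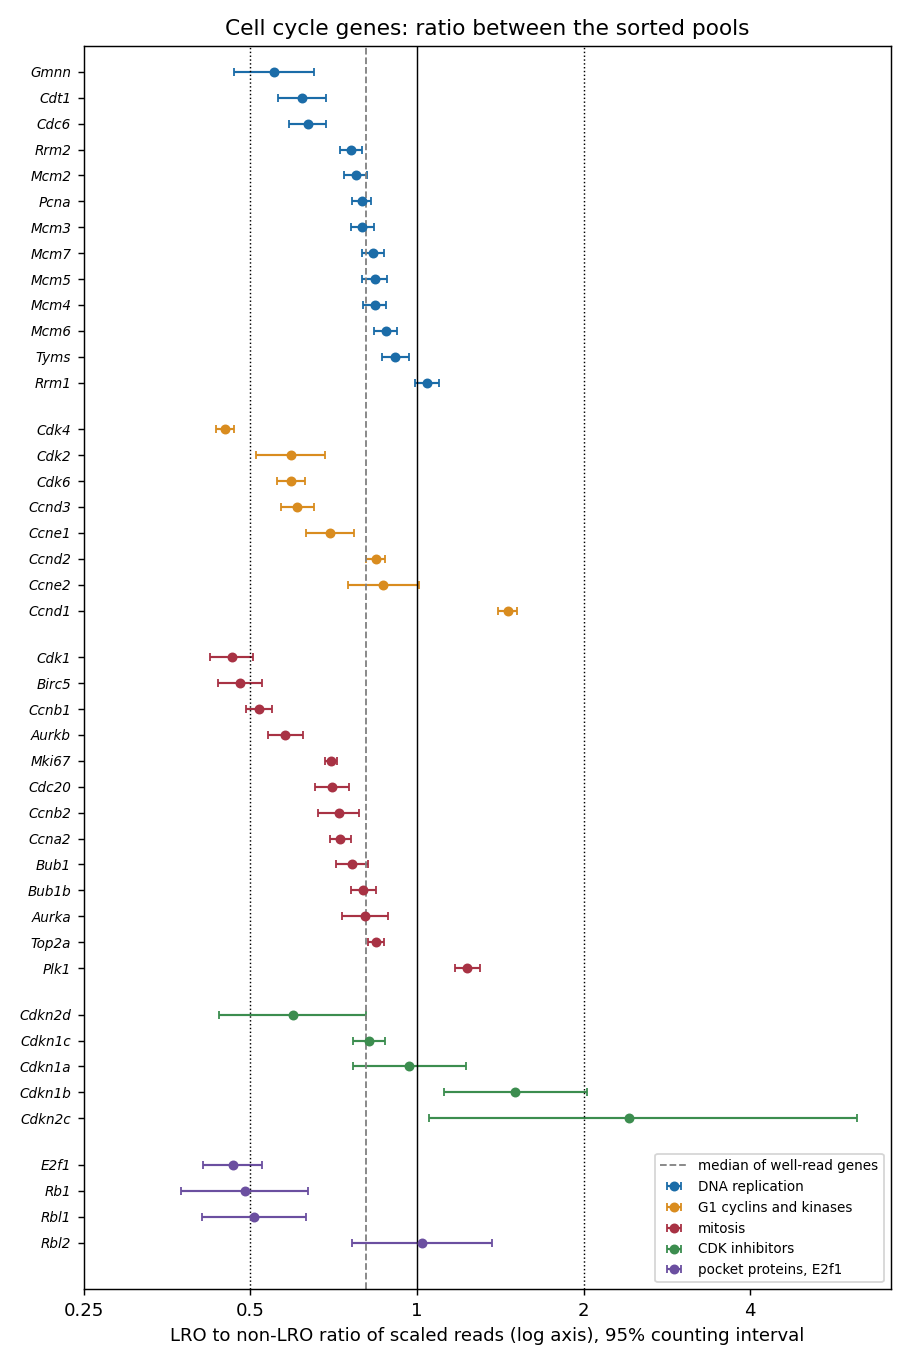
LRO to non-LRO ratio of scaled reads for 43 members with reads in both libraries (log axis), 1 point per gene with its 95% counting interval, by gene group. Dotted lines mark the fold bounds of 0.5 and 2 and the dashed line the median of well-read genes (0.809). The interval of Cdk4 lies wholly under 0.5, and Ccnd1, Plk1, Cdkn1b and Cdkn2c lie above 1.

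The member genes of DNA replication centred on the median of well-read genes. The 13 genes had a median log2 ratio of -0.33 (relative -0.02), and none was called. The 6 subunits of the MCM helicase, the ring that unwinds DNA at the fork, lay close together, with 2920 to 3730 LRO reads against 2807 to 3615 non-LRO reads. Their ratios ran from 0.775 (Mcm2, 0.739 to 0.813) to 0.877 (Mcm6, 0.835 to 0.922). The intervals of Mcm2, Mcm3, Mcm4, Mcm5 and Mcm7 held the median of well-read genes, and that of Mcm6 lay above it. Pcna, the sliding clamp of the polymerases, had 4911 against 4981 reads and a ratio of 0.795 (0.764 to 0.827). At 129 and 162 RPKM it was the most abundant replication gene in both libraries.

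The genes that control helicase loading lay lower than the helicase itself. Cdc6 and Cdt1 place the MCM ring on DNA, and Gmnn encodes geminin, which blocks Cdt1 after replication has begun. Cdc6 had 1169 LRO and 1486 non-LRO reads, a ratio of 0.634 (0.587 to 0.685). Cdt1 had 720 and 936 reads, a ratio of 0.620 (0.562 to 0.684). Gmnn had 243 and 355 reads, a ratio of 0.552 (0.467 to 0.651), and 17.7% of well-read genes had a lower ratio. All 3 intervals lay below the median of well-read genes, against 36.2% of such genes, and below those of every MCM gene. For Cdc6 the separation from the MCM genes rests on the sum of 2 transcripts. The transcript with 98.9% of its LRO reads had a ratio of 0.732 (0.675 to 0.793), overlapping the intervals of Mcm2 and Mcm3. Of the reads of these 3 genes and the 6 MCM genes, the 3 took 9.56% in the LRO pool (9.17 to 9.95) and 12.3% in the non-LRO pool (11.9 to 12.8). That share does not depend on the scaling between libraries.

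Enzymes of DNA precursors spread to the upper end of the replication genes. Rrm1 and Rrm2 are the subunits of ribonucleotide reductase, and Tyms makes thymidylate. Rrm1 had 3557 LRO and 2752 non-LRO reads, with a ratio of 1.04 (0.991 to 1.10), the highest of the 13. Its partner Rrm2, the subunit that varies with the cycle, had 3369 and 3575 reads and a ratio of 0.760 (0.725 to 0.796). The intervals of the 2 subunits did not overlap. Tyms had 2673 and 2358 reads and a ratio of 0.914 (0.864 to 0.966).

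Among the members, mitotic genes lay somewhat lower and spread more than replication genes. This order depends on the genes listed and was the reverse in the pathway lists described below. There the relative median was -0.34 for 20 origin and DNA synthesis genes and -0.26 for 26 spindle and kinetochore genes. The 13 mitotic members had a median log2 ratio of -0.47 (relative -0.16), and none was called. The intervals of 12 of 13 lay below 1, the same count as for the 13 replication genes, against 57.4% of well-read genes. With TMM factors 7 mitotic and 3 replication genes lay below 1, and with scaling to the median ratio 8 and 4. Against the median of well-read genes, 8 mitotic genes lay below (61.5%, against 36.2% of well-read genes). Neither comparison with well-read genes was matched for read depth. Together the 13 mitotic genes made up 0.126% of the LRO library total against 0.172% for non-LRO. Of all reads on replication and mitotic genes, the mitotic ones took 50.9% in the LRO pool (50.6 to 51.3) and 53.7% in the non-LRO pool (53.3 to 54.0).

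The kinase that starts mitosis was at the low end. Cdk1 had 766 LRO and 1334 non-LRO reads, a ratio of 0.463 (0.423 to 0.506), whose upper bound was just over the limit of 0.5. Birc5, which encodes survivin of the chromosomal passenger complex, had 734 and 1236 reads and a ratio of 0.479 (0.436 to 0.525). Ccnb1, the main B cyclin, had 2105 and 3277 reads and a ratio of 0.518 (0.490 to 0.547). These were the 3 lowest of the group, and a ratio below that of Cdk1 was found for 9.80% of well-read genes. Aurkb, the kinase partner of survivin, followed at 0.578 (0.538 to 0.622), with 1286 and 1792 reads. The place of Birc5 among the 3 rests on the sum of 2 transcripts. The transcript with 87.1% of its LRO reads had a ratio of 0.622 (0.560 to 0.691). That is above the ratio of Aurkb, with overlapping intervals.

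Other mitotic genes lay at or moderately below the table's median. Aurka, the spindle pole kinase, had 871 LRO and 872 non-LRO reads and a ratio of 0.805 (0.732 to 0.885). The spindle checkpoint kinase gene Bub1 had a ratio of 0.763 (0.715 to 0.815) and Bub1b, which encodes BubR1, a ratio of 0.80 (0.759 to 0.844). Both intervals held the median of well-read genes. Cdc20, the target of that checkpoint, had a ratio of 0.702 (0.655 to 0.752). Ccnb2 had a ratio of 0.722 (0.663 to 0.786), and Ccna2, the cyclin of S phase and G2, a ratio of 0.727 (0.695 to 0.760). The intervals of these 3 lay wholly below the median of well-read genes.

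The usual markers of dividing cells were abundant in the LRO pool. Mki67, the gene of the Ki-67 antigen, had 10678 LRO reads, the most of any member, and 12304 non-LRO reads. Read counts are not scaled to length. Per length Mki67 stood at 35.0 RPKM in the LRO pool, rank 4 among mitotic genes and rank 11 among all members. Its ratio was 0.700 (0.682 to 0.718). Top2a, the topoisomerase that untangles chromosomes, had 7349 and 7026 reads and a ratio of 0.843 (0.816 to 0.871), just above the table's median. At 46.5 RPKM in the LRO pool, Top2a had rank 2 among mitotic genes and rank 7 among all members.

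Plk1 was the exception among mitotic genes. This kinase acts from mitotic entry to cytokinesis, and it had 3619 LRO and 2366 non-LRO reads. Its ratio of 1.23 (1.17 to 1.30) was the highest of the 13, and the intervals of the other 12 all lay below it. At 54.0 RPKM it was the first of the mitotic genes in the LRO pool, and at 43.8 RPKM it was the fifth in the non-LRO pool. Of the reads on Plk1, Aurka and Aurkb, a comparison chosen after the values were seen, Plk1 took 62.7% in the LRO pool (61.4 to 63.9) and 47.0% in the non-LRO pool (45.7 to 48.4).

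**Figure D2:**
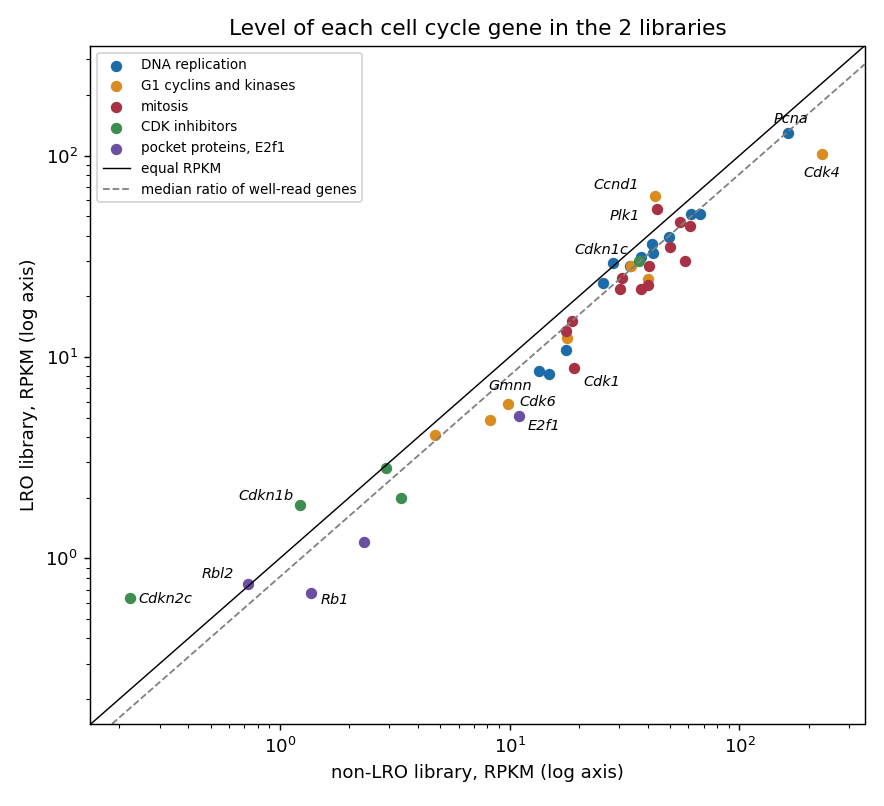
RPKM of each member in the non-LRO (horizontal) and LRO library (vertical), both on log axes, for 43 members with reads in both, coloured by gene group. The solid line marks equal RPKM and the dashed line their median over well-read genes (0.809). Cdk4 falls furthest below among abundant genes, at 228 and 102 RPKM, and Ccnd1 and Plk1 lie above the solid line.

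The G1 cyclins and their kinases spread widely. Their 8 genes had a median log2 ratio of -0.62 (relative -0.32). Cdk4, the catalytic partner of D cyclins, had 4168 LRO and 7476 non-LRO reads and was 2.23-fold lower (2.14 to 2.31) in the LRO pool. It was the most abundant member in the non-LRO pool, at 228 RPKM, and the second after Pcna in the LRO pool, at 102 RPKM. A lower ratio was found for 8.85% of well-read genes. With TMM factors the ratio was 0.572, and with scaling to the median of well-read genes it was 0.556, and both ended the call. Its exons overlap those of Tspan31 on the opposite strand over 19.7% of their length, and the libraries do not keep strand. Tspan31 had 1114 and 934 reads and a ratio of 0.961 (0.881 to 1.05).

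Ccnd1, which encodes cyclin D1, went the other way from its kinase. It had 7206 LRO and 3982 non-LRO reads, a ratio of 1.46 (1.40 to 1.52), which did not pass the size rule. Its relative log2 value of 0.85 lay above 90.1% of well-read genes. Part of its exons (23.4%) overlaps LTO1 on the opposite strand, listed in the table as Oraov1, which had only 94 and 125 reads. Ccnd2 had 4954 and 4742 reads and a ratio of 0.842 (0.809 to 0.877). Ccnd3 had 1456 and 1933 reads and a ratio of 0.607 (0.567 to 0.650). The 3 intervals did not overlap, so the D cyclins were ordered Ccnd1, Ccnd2, Ccnd3 by ratio.

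The makeup of the D cyclins therefore differed between the pools, whatever the scaling between libraries. Ccnd1 took 52.9% of D-cyclin reads in the LRO pool (52.1 to 53.8) and 37.4% in the non-LRO pool (36.4 to 38.3). This is a difference of 15.6 percentage points (14.3 to 16.8), or 17.5 points in RPKM. Ccnd2 took 36.4% and 44.5%, and Ccnd3 took 10.7% and 18.1%. Per length, Ccnd1 was the first D cyclin in both libraries, at 62.7 RPKM in the LRO pool and 43.0 in the non-LRO pool. Ccnd3 was the second in the non-LRO pool (39.97 RPKM against 33.7 for Ccnd2) and the third in the LRO pool (24.2 against 28.4).

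The other G1 kinases and the E cyclins lay between Cdk4 and the table's median or near it. Cdk6, the second D-cyclin kinase, had 2042 LRO and 2778 non-LRO reads and a ratio of 0.593 (0.559 to 0.628). Cdk2, the partner of E and A cyclins, had 343 and 468 reads and a ratio of 0.591 (0.512 to 0.681). The values of these kinases did not differ beyond their intervals. Ccne1 had 733 and 849 reads and a ratio of 0.696 (0.630 to 0.769). Ccne2 had 378 and 351 reads, and its ratio of 0.868 (0.749 to 1.01) held both 1 and the table's median. Exons of Ccne2 overlap those of Ints8 on the opposite strand over 17.4% of their length.

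CDK inhibitors were not called in either direction. Their 6 genes had a median log2 ratio of -0.17 (relative 0.14), and the 5 with reads in both libraries had a median ratio of 0.967. Of all reads on members, inhibitors took 2.15% in the LRO pool (2.06 to 2.24) and 1.96% in the non-LRO pool (1.87 to 2.04). Cdkn1c, which encodes p57 and is expressed from the maternal allele, was by far the most abundant, at 29.99 and 36.6 RPKM. It had 1738 and 1711 reads, and its ratio of 0.819 (0.766 to 0.876) held the table's median. Its exons overlap the antisense gene Gm44732 over 30.7% of their length, the largest such overlap of any member.

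The other Cip/Kip genes were scarce, and of them only Cdkn1b lay above Cdkn1c beyond its interval. Cdkn1a, which encodes p21, the inhibitor induced by p53, had 162 LRO and 135 non-LRO reads and a ratio of 0.967 (0.765 to 1.22). Cdkn1b, which encodes p27, the inhibitor typical of resting cells, had 134 and 72 reads. Its ratio of 1.5 (1.12 to 2.03) lay above 1 without passing the size rule, and 90.7% of well-read genes had a lower ratio. Cdkn1b stood at 1.84 and 1.23 RPKM, so it was still far below Cdkn1c in both pools. Its share of Cip/Kip reads was 6.59% in the LRO pool (5.55 to 7.75) and 3.75% in the non-LRO pool (2.95 to 4.70).

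The 3 INK4 members had few reads, and of these only Cdkn2a was at or under the floor of 3 reads. Another INK4 gene, Cdkn2b, counted below among the regulators of CDK activity, had 0 LRO reads and 1 non-LRO read. Cdkn2c, which encodes p18, had 24 LRO and 8 non-LRO reads and a ratio of 2.42 (1.05 to 6.23), the highest of all members, with a wide interval. Cdkn2d, which encodes p19 of the INK4 family, had 77 and 104 reads, summed over 2 entries of the same transcript, and a ratio of 0.597 (0.439 to 0.809). Cdkn2a, the locus of p16 and of the p53 activator Arf, had 0 LRO and 3 non-LRO reads, so no fold is given. A count of 0 allows up to 9.91e-06% of the LRO total.

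**Figure D3:**
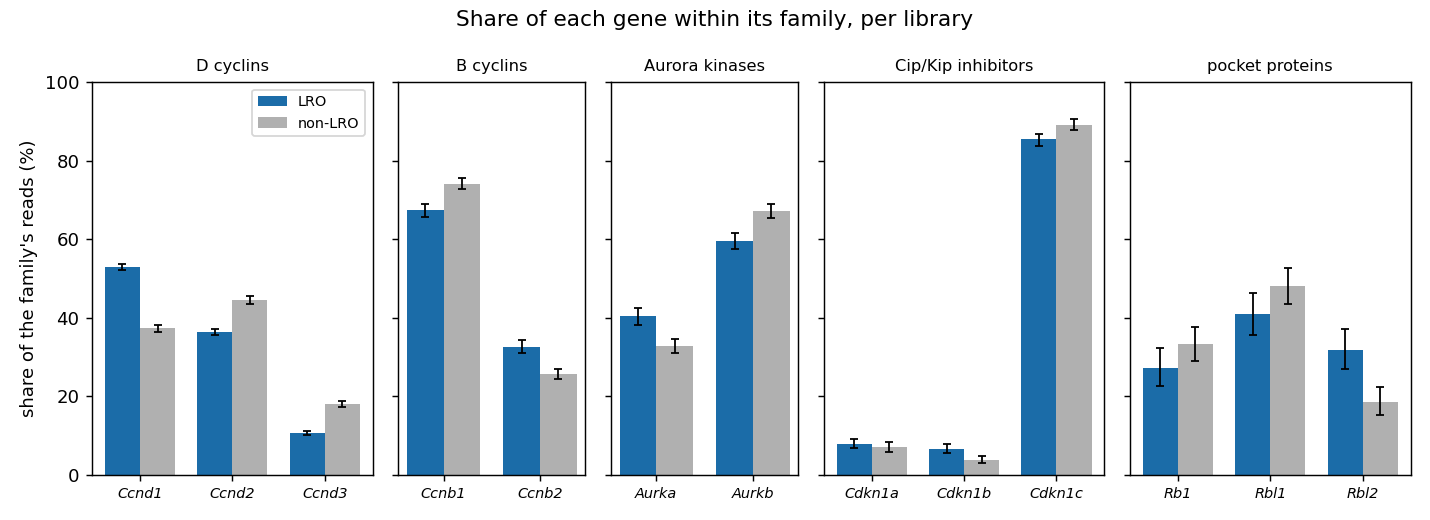
Share of each gene in the summed reads of its family (%), in the LRO pool (blue) and the non-LRO library (grey), with 95% exact binomial intervals. Ccnd1 holds 52.9% of D-cyclin reads in the LRO pool and 37.4% in the non-LRO pool, and Rbl2 holds 31.9% and 18.7% of pocket protein reads.

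Genes of the pocket proteins and E2f1 lay low, apart from Rbl2. Rb1, the retinoblastoma gene, had 94 LRO and 155 non-LRO reads and a ratio of 0.489 (0.374 to 0.636). Rbl1, which encodes p107 and is itself an E2F target, had 141 and 224 reads and a ratio of 0.507 (0.408 to 0.629). E2f1 had 418 and 726 reads and a ratio of 0.464 (0.411 to 0.524), and 9.89% of well-read genes had a lower ratio. The median log2 ratio of the 4 genes was -1.0 (relative -0.69), the lowest of the 5 groups, although their levels were low, at 0.671 to 5.10 RPKM in the LRO pool.

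Rbl2, which encodes p130, the pocket protein that prevails in resting cells, differed from its relatives. It had 110 LRO and 87 non-LRO reads and a ratio of 1.02 (0.762 to 1.37), an interval that did not overlap those of Rb1 and Rbl1. Rbl2 took 31.9% of pocket protein reads in the LRO pool (27.0 to 37.1) and 18.7% in the non-LRO pool (15.2 to 22.5), a difference of 13.2 points (7.18 to 19.3). Exons of Rbl2 overlap those of Aktip on the opposite strand over 9.17% of their length and those of Gm45464 over 11.8%. Aktip had 316 and 142 reads and a ratio of 1.79 (1.47 to 2.20). The part of reads from these genes in the value of Rbl2 was not tested.

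Several members had transcripts with different ratios, as estimated by the authors' split of shared reads. There were 18 members with more than 1 transcript entry. Of 2 transcripts of Cdc6, NM_011799 had 12.7 LRO and 213 non-LRO reads and made up 1.08% of the gene's LRO reads against 14.3% of its non-LRO reads. The other, NM_001025779, had a ratio of 0.732 (0.675 to 0.793). The long Birc5 transcript NM_001012273 had 94.9 and 407 reads and a ratio of 0.188 (0.149 to 0.236), while the short NM_009689 had a ratio of 0.622 (0.560 to 0.691). For Tyms the protein-coding NM_021288 had a ratio of 0.992 (0.936 to 1.05), and the non-coding NR_033402 a ratio of 0.365 (0.295 to 0.449). Of the Bub1 transcripts, NM_001113179 took 57.0% of reads in the LRO pool and 38.4% in the non-LRO pool. Of 3 Rbl2 transcripts, NM_001282001 had 24.6 and 3.29 reads and a ratio of 6.72 (2.05 to 34.8), the only member transcript called higher, and NM_011250 had 18.2 and 37.2 reads and a ratio of 0.392 (0.210 to 0.706). These splits rest on short stretches that tell transcripts apart, and their error is not in the intervals.

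Further genes of the pathway, 102 in 6 lists, were also mostly uncalled. Of these, 1 was higher and 7 were lower, against 3.97% and 12.3% of all genes (2.22% and 6.99% of well-read genes). With TMM factors and with scaling to the median ratio, 2 were higher and 0 lower, so every lower call named below ended. In the main scaling the median log2 ratio was -0.55 (relative -0.25). Genes of origin licensing, origin firing and DNA synthesis stood lowest among the larger lists, with a median of -0.65 (relative -0.34). Regulators of CDK activity had a median of -0.64, which includes pseudocount values for Cdkn2b and Ccna1, both at 0 LRO reads. With genes at 0 reads set to the floor of 3 reads, the median of these regulators was -0.52. Of the 20 origin and DNA synthesis genes, 5 were lower and 0 higher. Orc4, a subunit of the origin recognition complex, had 154 LRO and 332 non-LRO reads and a ratio of 0.374 (0.307 to 0.454). Pold1, the catalytic subunit of polymerase delta, had a ratio of 0.404 (0.358 to 0.454). Dbf4, which activates the Cdc7 kinase at origins, had a ratio of 0.426 (0.384 to 0.472). Orc1 and Mcm10, named after their values were seen, were the other called genes of the list. All 6 origin recognition genes had intervals below 1, against 47.3% of all genes and 57.4% of well-read genes. Those of 5 lay below the table's median, against 33.1% and 36.2%. The intervals of the 6 MCM genes held that median or lay above it.

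Spindle and kinetochore genes spread widely. Of 26, 1 was lower (3.85%, against 12.3% of all genes and 6.99% of well-read genes) and 0 higher, with a median log2 ratio of -0.57 (relative -0.26). Racgap1, needed for cytokinesis, had 806 LRO and 1425 non-LRO reads and a ratio of 0.456 (0.418 to 0.497). Spc24, a subunit of the Ndc80 complex named after its value was seen, had 728 and 285 reads and a ratio of 2.06 (1.79 to 2.37), below the size rule. None of 9 other E2F and DP genes was called (median -0.34), nor any of 9 genes of the MuvB complex and its partners (median -0.31). None of 20 regulators of CDK activity was called (median -0.64). Over all genes 3.97% were higher and 12.3% lower.

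Few genes around p53 were called. Of 18, 1 was higher and 1 lower (5.56%), against 3.97% and 12.3% of all genes and 2.22% and 6.99% of well-read genes, with a median log2 ratio of -0.39. Gadd45a, a stress gene, was the higher one, with 148 LRO and 31 non-LRO reads and a ratio of 3.85 (2.60 to 5.87). Mdm4, an inhibitor of p53, was the lower one, with 1624 and 3420 reads and a ratio of 0.383 (0.361 to 0.406). Trp53 itself had a ratio of 0.892 (0.860 to 0.925). The p53 target Mdm2 had a ratio of 0.673 (0.612 to 0.740), beside 0.967 for Cdkn1a.

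**Figure D4:**
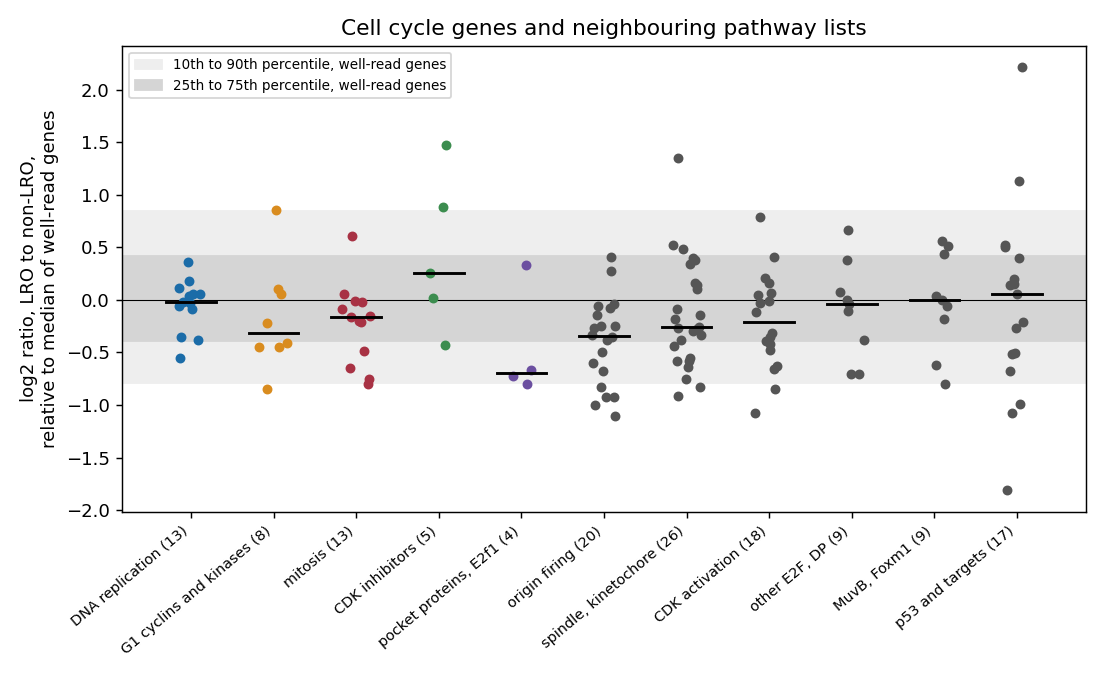
Log2 ratio relative to the median of well-read genes, 1 point per gene with reads in both libraries and a bar at the median of those genes, for the 5 member groups (colours) and 6 pathway lists (grey), numbers of genes in brackets. Bands span the 10th to 90th percentile (-0.79 to 0.84) and 25th to 75th percentile (-0.39 to 0.41) of well-read genes. For lists with genes at 0 reads these medians differ from those in the text, which take the whole list. The replication members centre on 0. Pocket protein genes with E2f1 lie lower, as does the list labelled origin firing, which also holds DNA synthesis genes.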

How the data were processed

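One LRO and one non-LRO library were compared. Per the labels, double-stranded cDNA was made with an Ovation kit, which does not mark strand, and libraries with a Nextera kit. The authors aligned reads with TopHat and quantified RefSeq transcripts in Partek Genomics Suite 6.6. The deposited estimated counts split reads shared by transcripts, and can be fractional. RPKM, also deposited, were scaled by the authors to transcript length and library total. Transcript length in bases was deposited as another unit. The authors' test columns were not used, nor were 4 further columns of values per library. The LRO column names no sample and was assigned as the only other library of the table, since the study lists its reads under GFP-positive cells.

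Counts were summed per symbol and rounded. Library totals were recovered from reads, length and RPKM. Ratios carry exact conditional binomial (Clopper-Pearson) 95% intervals, and the script was tested on simulated data. Amplified reads are not independent molecules, so intervals cover counting error only. List medians used a pseudocount of 1 read. Shares carry exact binomial intervals, and their differences an interval built from Wilson bounds. No test of the conditions was made. Python 3.11.15, scipy 1.17.1 and edgeR 4.0.16 were used. The labels name mm10, but the table's coordinates run past GRCm38, so none was printed. Exon overlaps were read from GENCODE annotation of GRCm38, over all annotated exons of each gene. These can exceed the RefSeq transcripts that were counted, so the shares need not hold for the counted bases. Such overlaps with a gene on the opposite strand were found for 15 members, not all of them named above. Among them were Ccna2 with Exosc9 (12.5% of its exon length) and Rb1 with Rcbtb2 (8.11%) and Lpar6 (6.78%). The part of reads from overlapping genes was not tested.

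Members and lists were chosen with earlier results of these data known. All members are described, with fuller values for called genes and the 3 highest and lowest ratios of each group, and up to 3 called genes per direction for each pathway list, by the bound nearest 1; others are marked as chosen after their values were seen. The subgroups within groups and shares of B cyclins, Aurora kinases and Plk1 were chosen after the values were seen. Alternatives were other scalings (assigned reads, TMM, median ratio), a 99% interval, fold bounds of 1.5 and 4, at least 50 reads, the leading transcript, reads divided by 10, pseudocounts of 0.5 and 5, and RPKM.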

Additional observations from a re-analysis of the deposited data

How the results depend on the processing

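With TMM factors and with the median ratio of well-read genes, 0 members were lower, 12 and 9 had intervals above 1, and 18 and 20 below 1. These scalings centre the table by construction. With TMM factors the median log2 ratios were 0.019 for replication, -0.27 for G1, -0.12 for mitotic and 0.18 for inhibitor genes. With the median ratio they were -0.024, -0.32 and -0.16 for the first 3 groups. With reads divided by 10, 0 members were lower, 2 had intervals above 1, and of the pathway genes 0 were higher and 1 lower. Fold bounds of 1.5 and 4 gave 11 and 0 lower members, 29 and 0 lower and 2 and 0 higher pathway genes. Both scalings gave 2 higher and 0 lower pathway genes, and the leading transcript gave 2 higher. The Ccnd1 share differed by 17.5 points in RPKM. The cause of moves not due to construction was not tested. No member was higher under any of these settings. Calls of the 2 members with under 50 reads over both libraries cannot be made under that filter. No paired analysis was possible because only 1 library stood for each pool.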
